A study of Homo sapiens with 15 samples.

Results

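This account concerns 716 FOXA1 sites that were gained with the stereoprobe WX-02-23 in both engineered 22Rv1 lines, out of 25849 peaks listed for the wild-type (WT) line with that compound. The sites were chosen by the deposited peak calls of 4 lists, which is a choice on measured values. A site was a peak of the WT line with WX-02-23 that overlapped a peak of the C258A line with WX-02-23 by at least 1 bp and overlapped no peak of either line with DMSO. Its presence in those lists is therefore given by the choice and is not a result. The calls in the other 8 lists, the width and the position of the sites were not part of the choice.

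22Rv1 is an established human prostate carcinoma line, and FOXA1 was profiled in it by chromatin immunoprecipitation and sequencing with an antibody against FOXA1. Of 15 samples, 12 had a peak list and 3 were inputs that were not analysed here. The 6 engineered libraries came from cells that stably expressed Y36C-PHF5A, a mutant form of a splicing factor subunit, and carried FOXA1 under doxycycline control, WT in one line and C258A, in which a cysteine is replaced by alanine, in the other. Each line gave 3 libraries: a noDox one labelled with DMSO, and 2 after induction, with DMSO or with 20 µM WX-02-23. The 6 parental libraries received DMSO, WX-02-23 or WX-02-43 at 20 µM, PladB, siFOXA1 or a control small interfering RNA (siControl). The compound exposure was 3 h, and DMSO was used at 0.1%. For PladB the labels give conflicting doses. No change to the endogenous FOXA1 gene is labelled in these lines, the antibody is not described as telling induced from endogenous FOXA1, and whether each line is 1 clone is not given in the sources used here. With 1 library per condition there is no replicate error to set a difference against, and no p-value is given. Every interval below covers counting error only and treats sites as independent.

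FOXA1 is a forkhead pioneer transcription factor, a protein that can bind its sites in closed chromatin and make them accessible to other factors. In prostate epithelium it opens enhancers that the androgen receptor uses. Pladienolide B (PladB) binds the splicing factor complex that contains PHF5A, and a covalent compound can act on a protein through a cysteine. The C258A form lacks the cysteine at that position, so sites gained in both lines are sites at which the gain was listed with either form of the induced protein.

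The 12 lists held between 3018 and 34119 peaks, and their read depth is unknown. The 4 lists behind the choice held 31735 peaks for WT with DMSO, 25849 for WT with WX-02-23, 13299 for C258A with DMSO and 20609 for C258A with WX-02-23. The C258A DMSO list was the shortest of the 4. The effect of list length was examined only by shortening lists, as given below.

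Among WT peaks with WX-02-23, 6112 (23.6%) were absent from both DMSO lists, and the 716 sites were 11.7% of these (95% Wilson interval 10.9 to 12.5%). The other 5396 were gained in WT cells alone. From the side of the C258A line, 2441 peaks with WX-02-23 were absent from both DMSO lists, and 719 of them (29.5%, 27.7 to 31.3%) lay at sites gained in both lines. The remaining 1722 were gained in C258A cells alone. Seen another way, 14689 WT peaks with WX-02-23 were also peaks of the C258A line with WX-02-23. Of these, 9748 were in both DMSO lists, 4035 in the WT DMSO list alone, 190 in the C258A DMSO list alone, and 4.87% in neither, which are the 716. Most peaks that both lines shared with the compound were thus listed without it in at least 1 line.

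The rule turns on an overlap of 1 bp, and a few sites lay near that edge. The smallest overlap between the WT and C258A peak was 2 bp, on chromosome 6 from 10008027 to 10008305, where WT cells scored 99.1 and C258A cells 467. The next were 3 bp on chromosome 12 from 60659657 to 60660069 and 32 bp on chromosome 6 from 96445785 to 96446118. Just outside, a WT peak scoring 417 on chromosome 11 from 38981655 to 38982127 touched a C258A peak at a distance of 0 bp and was not counted. The nearest DMSO peak to any counted site was 5 bp away, at chromosome 20 from 52481410 to 52481933. The excluded peak with the smallest overlap with a DMSO peak, 15 bp, was on chromosome 4 from 86651924 to 86652501. Coordinates are of the hg19 build and are counted from 1.

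Such edge cases were few. The WT and C258A peaks of a site had midpoints a median of 35.8 bp apart, with quartiles of 17.0 and 63.5 bp. Their overlap covered a median of 100% of the shorter peak, with a lower quartile of 94.9%. Taking the C258A peak with the largest overlap, no 2 sites shared a partner. At the median site the shorter peak therefore lay wholly within the longer one.

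The sites ranked low in both lists, as did the other gained sites. Each peak carries a score set by the authors, which the sources used here do not define. No peak scored below 90, and the score serves here only to rank or describe peaks within a list. In the WT list the sites had a median score of 133, with quartiles of 109 and 181 and a highest value of 751, against a median of 174 for all peaks of that list and 119 for sites gained in WT alone. In the C258A list their median was 119, with quartiles of 102 and 149 and a highest value of 467, against a median of 108 for sites gained in C258A alone. Scores were under 150 in both lists at 364 sites and at least 150 in both at 91. Under 100, close to that lower limit, were 90 sites (12.6%, against 9.95% of all WT peaks with WX-02-23) in WT and 158 (22.1%) in C258A cells. Under 150 in WT were 62.7% of the sites and 41.2% of all peaks. The same shares of all C258A peaks were not computed. Only 49 sites ranked in the top 50% of both lists, and none in the top 10% of both.

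The 2 scores of a site were loosely related. Across the 716 sites, Pearson's r was 0.218 and Spearman's rho 0.159, a description across sites within 2 libraries. Across the 9748 WT peaks called in all 4 induced lists the values were 0.717 and 0.573, over a wider range of scores. The site with the highest WT score, 751, on chromosome 15 from 99982251 to 99982721, had a C258A score of 146. The site with the highest C258A score was the one with an overlap of 2 bp described above. Both sites were singled out after their values were seen.

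**Figure D1:**
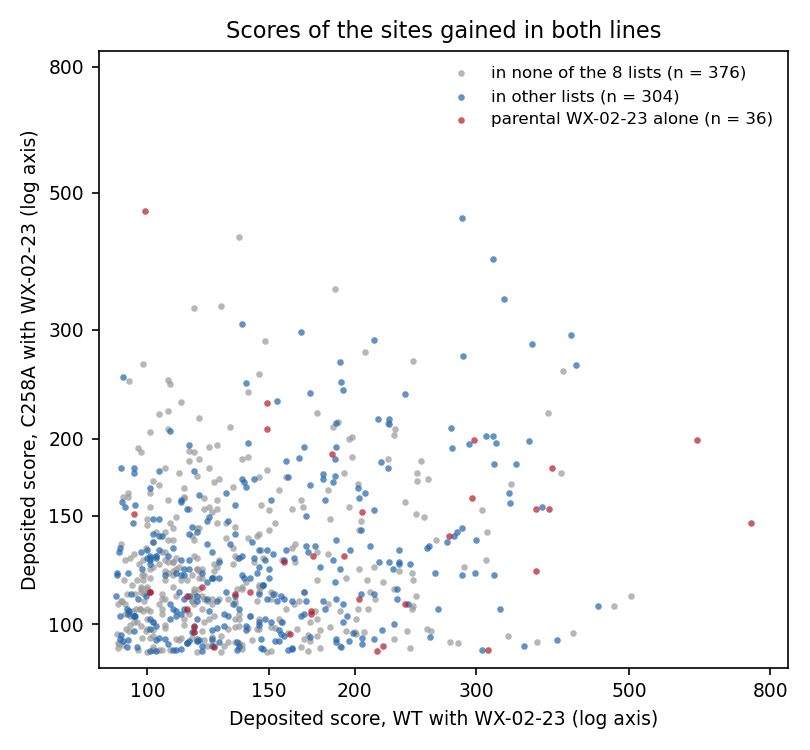
Deposited score of each of the 716 sites in the WT list with WX-02-23 (horizontal) and in the C258A list with WX-02-23 (vertical), both on log axes, with 1 point per site coloured by the calls in the other 8 lists. Most points crowd near the floor of 90, with medians of 133 and 119, and few sites are high on both axes.

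The sites were narrow. Their median width was 488 bp in the WT list, with quartiles of 425 and 554 bp, and 463 bp for the partner peaks in the C258A list. All WT peaks with WX-02-23 had a median of 533 bp, those called in all 4 lists 592 bp, and those gained in WT alone 468 bp. Width rises with score, so the WT list was divided by score into 5 bins of equal size, bin 1 having the lowest scores. In bin 1 the median width was 442 bp for the sites and 435 bp for all peaks. In bin 3 it was 514 and 531 bp, in bin 4 it was 559 and 588 bp, and in bin 5 it was 554 and 692 bp.

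The 8 lists outside the choice show where else these sites were called. In parental cells with WX-02-23, 292 of 716 sites were called (40.8%, 37.2 to 44.4%), against 29.4% of all WT peaks with WX-02-23. With WX-02-43 205 were called (28.6%, against 27.4% of all), with DMSO 262 (36.6%, 33.1 to 40.2%, against 34.8%), with PladB 270 (37.7%, against 35.9%) and with siControl 275 (38.4%, against 35.9%). Only the parental WX-02-23 share stood above the level of all peaks by more than its counting interval among these 5. After FOXA1 knockdown 11 sites were called (1.54%, 0.86 to 2.73%, against 0.731%), and all 11 were also siControl sites. Without doxycycline, 85 were called in WT cells (11.9%, 9.7 to 14.4%, against 19.8%) and 172 in C258A cells (24.0%, 21.0 to 27.3%, against 25.0%).

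**Figure D2:**
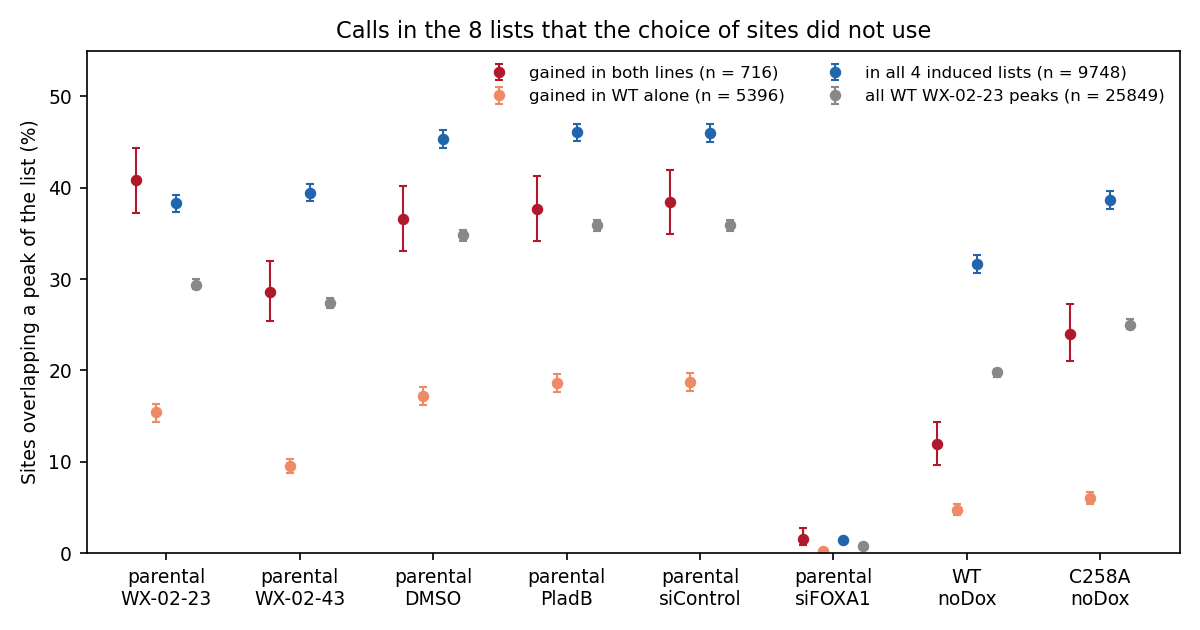
Percentage of sites that overlapped a peak of each of the 8 lists the choice did not use, for 4 sets of WT peaks with WX-02-23, with Wilson 95% intervals as bars. Sites gained in both lines lie above sites gained in WT alone in every list, and in parental WX-02-23 at 40.8% they also lie above the 29.4% of all peaks. By the choice, sites gained in WT alone lacked a C258A call with WX-02-23, so their contrast with the sites is not independent of it.

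In none of the 8 lists were 376 sites (52.5%, 48.9 to 56.1%) called, a smaller share than the 58.5% of all WT peaks with WX-02-23. Within this series those 376 were listed only in the engineered lines with doxycycline and WX-02-23. The other 340 (47.5%, against 41.5% of all peaks) were called in at least 1 of the lists. Of the sites, 82 were in 6 lists (11.5%, against 6.12% of all peaks), 66 in 5 (9.22%, against 5.76%), 59 in 7 (8.24%, against 14.8%) and 49 in 1 (6.84%, against 4.5%). All 5 parental lists without knockdown called 184 sites (25.7%, 22.6 to 29.0%), against 22.7% of all peaks. At least 1 of parental DMSO, siControl and PladB called 298 (41.6%, 38.1 to 45.3%), against 38.8% of all peaks. Both all-peak shares lay within the interval of the sites. The word gained thus refers to the induced DMSO lists and not to parental cells without a stereoprobe.

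In the engineered lines themselves, 178 sites (24.9%, 21.8 to 28.2%) were called without doxycycline in at least 1 line, against 26.4% of all peaks, which lay within the interval of the sites. Both noDox lists called 79 sites (11.0%, 8.94 to 13.5%, against 18.4% of all peaks). The C258A noDox list and not the WT one called 93 (13.0%, 10.7 to 15.7%, against 6.66% of all peaks). The WT noDox list and not the C258A one called 6 (0.838%, 0.385 to 1.82%, against 1.39%). The C258A noDox list was the longer one, with 12752 peaks against 8575. With both reduced to 8575 peaks, 107 sites (14.9%) were called in C258A and 85 (11.9%) in WT cells without doxycycline, against 20.5% and 19.8% of all peaks. At that length both shares were below those of all peaks, and the lines differed less than with the lists as deposited.

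The most frequent combinations of calls were few. After the 376 sites in no list, 60 sites were called in the 5 parental lists without knockdown and in C258A noDox, and 59 in those and in WT noDox as well. Another 50 were called in the 5 parental lists alone. The 59 were all the sites in 7 lists, 8.24%, against 14.8% of all peaks in 7 lists of any combination. For the groups of 60 and 50 sites the share of all peaks was not computed. The fourth group, 36 sites (5.03%, 3.65 to 6.88%), had a parental WX-02-23 call and no call elsewhere among the 8. That combination held 1.95% of all WT peaks with WX-02-23, 2.71% of the sites gained in WT alone and 0.755% of the sites gained in C258A alone. Its 36 sites had a median WT score of 174, against 124 for the sites in no list and 143 for those in parental DMSO, siControl or PladB.

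Where they were called in the 5 parental lists without knockdown, the sites had median ranks between those of sites gained in WT alone and of peaks in all 4 induced lists. Of the 292 in the parental WX-02-23 list, 205 ranked in its top 50% and 37 in its top 10%, with a median score of 311 against 197 for the list. Of the 262 in the parental DMSO list, 169 ranked in its top 50% and 21 in its top 10%, with a median of 347 against 228. In the parental WX-02-43 list, by contrast, their median score of 200 was near the list's 197. Sites gained in WT alone had medians of 189 in parental WX-02-23 and 220 in parental DMSO, and peaks in all 4 induced lists had 392 and 771. Of the 37 sites in the top 10% of the parental WX-02-23 list, 11 ranked in the lower 50% of both induced WX-02-23 lists, as did 15 of the 21 in the top 10% of parental DMSO and 474 of all 716.

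The parental lists give a view of WX-02-23 against DMSO that the choice did not use. As deposited, 232 sites were called in both lists, 60 with WX-02-23 and not DMSO, and 30 with DMSO and not WX-02-23. Over all 25849 WT peaks with WX-02-23 the same counts were 6783, 826 and 2207. The DMSO list was much longer, with 30557 peaks against 17217. With the parental lists reduced to their 17217 highest-scoring peaks, 292 sites (40.8%) were called with WX-02-23 and 179 (25.0%) with DMSO: 170 with both, 122 with WX-02-23 alone and 9 with DMSO alone. At that length WX-02-43 called 189 (26.4%), PladB 187 (26.1%) and siControl 183 (25.6%). The 4 lists without WX-02-23 thus lay within 25.0 to 26.4%, and the WX-02-23 list stood apart from them at that length. It is the full length of the WX-02-23 list, which alone kept its lowest-scoring peaks. As deposited, its interval (37.2 to 44.4%) overlapped that of DMSO (33.1 to 40.2%), and PladB was at 37.7% and siControl at 38.4%.

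In percentage points the other sets of sites gave smaller differences between the same 2 lists, but such differences depend on the share called. The sites gained in 1 line alone had lower shares in both lists, and there too more were called with WX-02-23. Of the sites gained in WT alone, 15.4% were called in parental WX-02-23 and 9.69% in parental DMSO at equal length, 416 with WX-02-23 alone and 110 with DMSO alone. These were 829 and 523 sites, against 292 and 179 of the sites gained in both lines. In proportion the difference was thus similar in these sets and not particular to the sites gained in both lines. Of the 1722 sites gained in C258A alone, 14.0% and 12.8% were called, 74 and 53 with 1 list alone. Of the 9748 peaks in all 4 induced lists, 38.3% and 39.5% were called, 391 and 511 with 1 list alone. Over all 25849 WT peaks with WX-02-23 the shares were 29.4% and 27.4%, 1617 with WX-02-23 alone and 1089 with DMSO alone. More calls with WX-02-23 alone than with DMSO alone were thus also seen over all peaks. WX-02-23 and WX-02-43, set against each other at equal length, called 292 and 189 of the sites gained in both lines, 113 with WX-02-23 alone and 10 with WX-02-43 alone. Of the sites gained in WT alone they called 829 and 476, in proportion a larger difference, with 446 and 93 in 1 list alone. There too the lists without WX-02-23 lay together, at 8.82 to 9.97%. Of the peaks in all 4 induced lists, WX-02-23 and WX-02-43 called 38.3% and 38.9%. Of all WT peaks with WX-02-23 they called 29.4% and 26.5%, 1741 and 992 with 1 list alone. Whether these differences would recur in further libraries was not tested, since each parental list is 1 library.

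**Figure D3:**
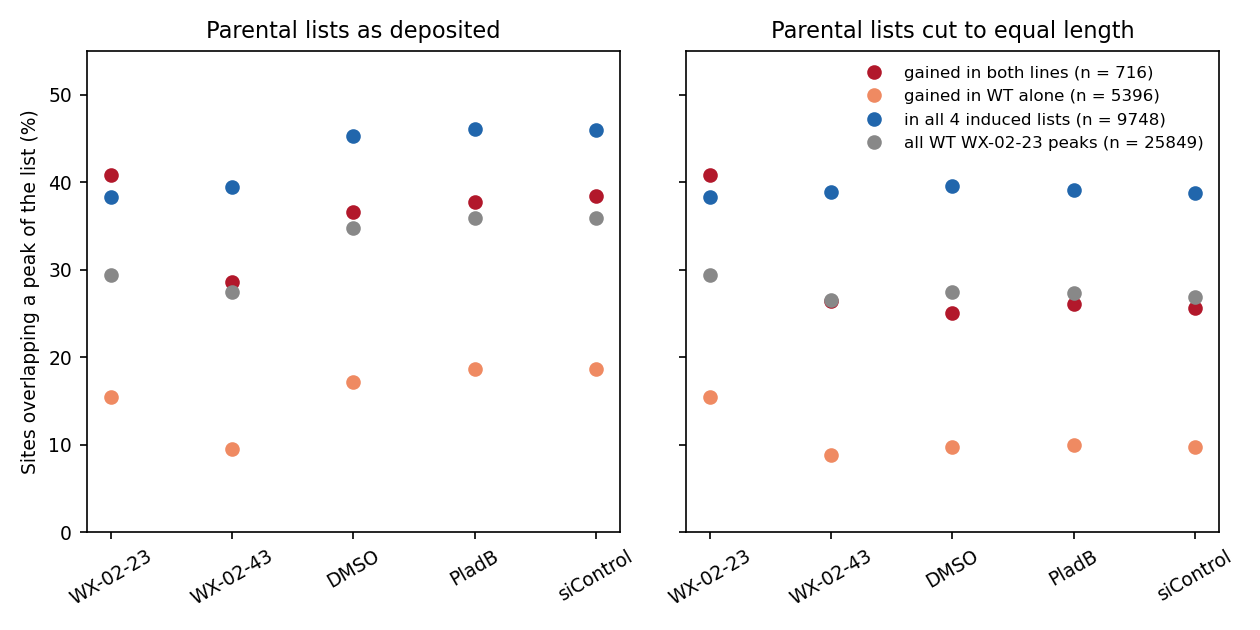
Percentage of sites called in 5 parental lists as deposited (left) and with each list reduced to its 17217 highest-scoring peaks (right), for 4 sets of WT peaks with WX-02-23, 1 point per set and list. At equal length the sites gained in both lines are at 40.8% with WX-02-23 and between 25.0 and 26.4% with the other lists. The WX-02-23 list holds 17217 peaks and was thus kept whole.

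The shares were also taken within the 5 score bins of the WT list. In bin 1, with scores up to 112, parental WX-02-23 called 33.3% (27.3 to 40.0%) of 210 sites, against 14.5% (13.1 to 16.0%) of 2253 sites gained in WT alone and 20.9% (18.0 to 24.1%) of 666 peaks in all 4 lists. In bin 2 the shares were 32.7% (27.0 to 39.1%) of 226 sites, 15.3% (13.7 to 17.2%) and 25.4% (22.8 to 28.2%). In bin 3 they were 49.4% (41.8 to 57.0%) of 162 sites, 17.1% (14.9 to 19.6%) and 30.3% (28.1 to 32.6%). In bin 4 they were 56.7% (46.8 to 66.1%) of 97 sites, 15.8% and 34.4% (32.5 to 36.2%). Bin 5 held only 21 sites, and 61.9% of them were called (40.9 to 79.2%, against 50.1% of the peaks in all 4 lists). The interval of the sites lay above that of the peaks in all 4 lists in bins 1, 3 and 4 and overlapped it in bins 2 and 5. It lay above that of sites gained in WT alone in all 5 bins. By the choice, each site also had a C258A call with WX-02-23, and sites gained in WT alone had none. That contrast is therefore not independent of the choice, and the bins matched the WT score only.

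The parental DMSO list gave another picture. There the sites were called at 33.3%, 32.3%, 42.6%, 45.4% and 28.6% from bin 1 to bin 5, and peaks in all 4 lists at 32.1%, 38.4%, 39.9%, 41.8% and 53.6%. In bins 1 to 4 the intervals of these sets overlapped, and in bin 5 that of the sites (13.8 to 50%) lay below that of the peaks in all 4 lists (52.1 to 55.2%). Sites gained in WT alone were called at 12.6 to 18.8%.

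**Figure D4:**
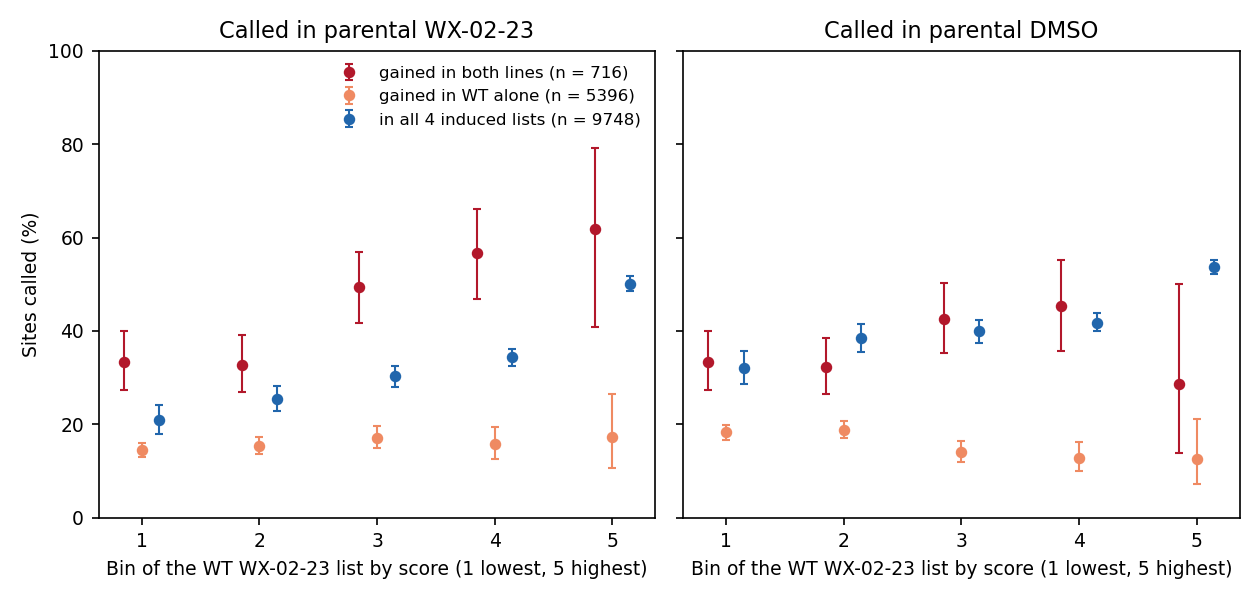
Percentage of sites called in parental WX-02-23 (left) and parental DMSO (right) within 5 bins of the WT WX-02-23 list by score, bin 1 having the lowest scores, for 3 sets, with Wilson 95% intervals as bars. With WX-02-23 the sites gained in both lines go from 33.3% in bin 1 to 61.9% in bin 5, with overlapping intervals against the peaks in all 4 lists in bins 2 and 5, while with DMSO they overlap those peaks in bins 1 to 4.

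Individual sites show the kinds by position. Ranked by the worse of their 2 ranks, the first site lay on chromosome 20 from 38489913 to 38490395, with scores of 412 in WT and 294 in C258A cells. It was called in every other list except siFOXA1, with 789 in parental WX-02-23, 298 in WX-02-43, 597 in DMSO, 625 in PladB, 660 in siControl, 205 in WT noDox and 244 in C258A noDox. It was thus listed in parental cells and without doxycycline, and missing only from the induced DMSO lists and after knockdown. Another 3 of the first 8 had the same calls: chromosome 1 from 47369171 to 47369721 (317 and 391), chromosome 12 from 104669409 to 104669926 (287 and 272) and chromosome 10 from 19641309 to 19641746 (286 and 456), with WT and C258A scores in brackets.

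The sites on chromosome 1 from 74992373 to 74992929 (329 and 337) and on chromosome 10 from 79047445 to 79048010 (361 and 285) lacked a WT noDox call and had the others. The latter ranked 725 of 17217 in parental WX-02-23, with a score of 1165, and 8839 of 30557 in parental DMSO, with 417. The site on chromosome 3 from 188842733 to 188843296 (418 and 263) was called only in parental WX-02-23, with 547, and in siControl, with 194. The last of the 8, on chromosome 4 from 126844863 to 126845396 (400 and 257), was in none of the 8 lists and had its nearest induced DMSO peak 3959 bp away. Thus 6 of the 8 were also peaks of parental DMSO cells, against 36.6% of all 716 sites and 34.8% of all WT peaks with WX-02-23. These 8 were picked by rank. Over all peaks such calls rose with score, from 26.2% in bin 1 to 48.7% in bin 5.

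Among sites that only parental WX-02-23 added, the leading one was on chromosome 15 from 80334722 to 80335222, with scores of 298 in WT, 199 in C258A and 196 in parental cells with WX-02-23. On chromosome 3 from 144013530 to 144014001 the 3 scores were 627, 199 and 305. On chromosome 10 from 65370940 to 65371259 they were 386, 179 and 283, on chromosome 11 from 89347370 to 89347952 they were 296, 160 and 337, and on chromosome 13 from 55114991 to 55115470 they were 185, 189 and 148. These 5 sites were called in all 3 libraries exposed to WX-02-23, and the remaining 9 lists lacked them.

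After the chromosome 4 site above, the leading sites in none of the 8 lists were on chromosome 21 from 28753089 to 28753617 (381 in WT, 220 in C258A), chromosome 1 from 180651794 to 180652148 (243 and 267), chromosome 13 from 92364416 to 92364897 (229 and 207) and chromosome 7 from 79030041 to 79030820 (228 and 203). Their nearest induced DMSO peaks were 17065, 8148, 9577 and 18532 bp away.

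At the other end, 4 sites were in all 8 lists (0.559%, against 0.646% of all WT peaks with WX-02-23). The leading one, on chromosome 4 from 144021773 to 144022061, scored 169 in WT and 104 in C258A cells with WX-02-23, against 1177 in parental WX-02-23, 1464 in parental DMSO and 338 with siFOXA1. The next, on chromosome 20 from 11613619 to 11614106, scored 112 and 120, against 1356 in parental WX-02-23, 1372 in DMSO and 427 in WT noDox. The third, on chromosome 11 from 96916507 to 96917067, scored 96.8 and 110, against 464 and 1301 in the parental lists and 229 and 247 in the noDox lists of WT and C258A cells. Scores of different lists are not on a known common scale, so ranks within lists are given. In parental WX-02-23 the 3 sites ranked 710, 510 and 3289 of 17217. In the WT list with WX-02-23 they ranked 13367, 20820 and 24033 of 25849. All 3 were also called without doxycycline.

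The sites were spread over the genome. Chromosome 1 held 66, chromosome 4 held 65, and chromosomes 2 and 8 held 54 each. Of 1 Mb windows with any site, 523 held 1, 72 held 2 and 14 held 3. Only 17 sites (2.37%) had another within 10000 bp. The nearest induced DMSO peak was a median of 21995 bp away, against 21426 bp for sites gained in WT alone, and lay within 1000 bp at 56 sites (7.82%, against 7.65%).

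By chromosome, the share of the sites was compared with that of all WT peaks with WX-02-23. On chromosome X lay 30 sites (4.19%, 2.95 to 5.92%), against 1.76% of all peaks (1.6 to 1.92%), 2.39% of the sites gained in WT alone and 3.37% (2.61 to 4.33%) of those gained in C258A alone. On chromosome 8 the share was 7.54% (5.83 to 9.71%) against 5.27%, and on chromosome 16 it was 2.93% (1.93 to 4.44%) against 1.76%. On X and chromosome 8 the interval of the sites lay above that of all peaks, and on chromosome 16 it met that of all peaks, which ran from 1.61 to 1.93%. Chromosome Y held 0 of 716 sites, which by a limit of 3 counts allows a share of up to 0.419%, and 0.414% of all peaks. By the ratio of the shares chromosome 20 (2.37%, 1.49 to 3.77%, against 1.49%) also stood high, and chromosomes 19 (0.419% against 0.801%) and 17 (1.12% against 1.86%) stood low, with intervals that overlapped those of all peaks. These chromosomes were picked from 24 after their values were seen.

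**Figure D5:**
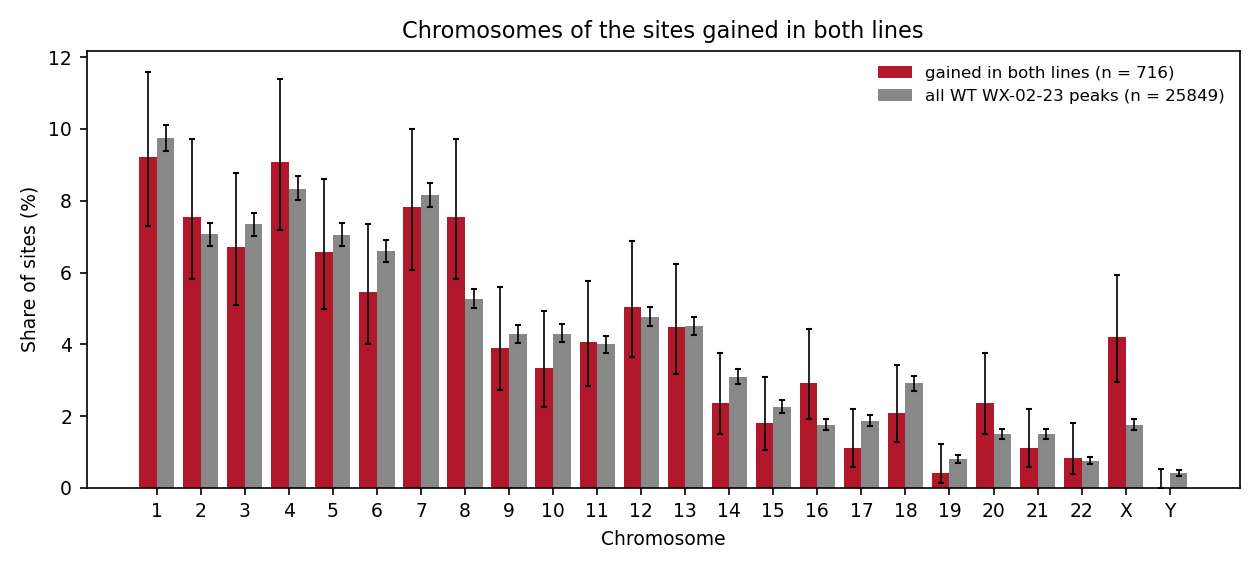
Share of the 716 sites (red) and of all 25849 WT peaks with WX-02-23 (grey) on each chromosome, in percent of the set, with Wilson 95% intervals as bars. The sites follow the peaks on most chromosomes and stand above them on X at 4.19% against 1.76%.

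Part of the X share came from 1 place. A 1 Mb window of X held 7 sites, between 114959658 and 114998878, scoring 113 to 224 in the WT list and 93.5 to 211 in the C258A list. Neighbouring starts were 2.87, 6.04, 2.92, 20.8, 3.09 and 3.08 kb apart, so 4 of these 6 distances lay between 2.87 and 3.09 kb. Whether the 7 are copies of a repeated sequence, in which case they would not be separate sites, was not tested. All 7 were called in the 5 parental lists without knockdown and with siFOXA1, and none without doxycycline. In parental WX-02-23 they scored 2075 to 2797, among the highest of that list. In the other parental lists without knockdown they scored 229 to 544 (DMSO), 372 to 661 (WX-02-43), 375 to 571 (PladB) and 629 to 1042 (siControl). With siFOXA1 they scored 95.5 to 155. They made up 7 of the 11 sites called after knockdown, and without them 4 of 709 (0.564%) were called, against 0.731% of all peaks with that window kept. Without them X held 23 of 709 sites (3.24%, 2.17 to 4.82%).

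The set itself depends on how long the lists are. With the 4 induced lists reduced to 13299 peaks each, 517 sites met the rule and only 89 of them were among the 716. In that set 57.8% were called in parental WX-02-23 and 54.7% in parental DMSO, and at equal parental length 57.8% and 44.3%, with 74 called with WX-02-23 alone and 4 with DMSO alone. Shortening keeps the higher scores, and the share of all peaks in the shortened lists was not computed. Over all WT peaks with WX-02-23, calls rose from bin 1 to bin 5, from 18.6% to 46.7% in parental WX-02-23 and from 26.2% to 48.7% in parental DMSO. When only the WX-02-23 lists were reduced and the DMSO lists kept whole, the same number of the 716 remained, 89, and none was added. Of these, 57.3% were called in parental WX-02-23 and 42.7% in parental DMSO.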

How the data were processed

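FOXA1 peaks of 12 libraries were used as deposited, 1 list per library without a header. Per the submitters' processing notes, bcl2fastq and Bowtie2 were used with the hg19 build. Peak names begin with MACS; the caller's version, threshold and control are not given in the sources used here. The score is the authors' value per peak as deposited, with no stated definition. Starts were read as counted from 0. Read totals were not analysed here.

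Lists were joined by an overlap of at least 1 bp, and no pair of lists was identical. The overlap code was tested on simulated data and against bedtools 2.31.1. Shares carry Wilson 95% intervals (scipy 1.17.1). With 1 library per condition no test was made. Sites named by position were the 8 with the best worse rank in the 2 WX-02-23 lists, and the best few of those called in parental WX-02-23 alone, in none, in all or with siFOXA1, besides those at the edges of the rule. The sites and comparisons were chosen with earlier results of these data known. Alternatives changed overlap, list length, chromosomes and the list that supplies the sites. No genome of this build was used, so sequence and genes at the sites were not analysed here.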

Additional observations from a re-analysis of the deposited data

How the results depend on the processing

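Of 114 alternative values for 14 results, 58 stayed within the interval of the value reported (or within 1.5 times the number of sites) and 56 moved. None of these values has a test. All 13 values without a DMSO peak within 1000 bp stayed. The limit is the depth of the libraries, which is unknown, and 1 library per condition. No paired analysis was possible because each condition has 1 library.

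With absence from parental DMSO and both noDox lists also required, 440 sites met the rule. With the looked-up list at the shortest length of its kind, calls became 25.0% in parental DMSO, 26.1% in PladB, 25.6% in siControl and 14.9% in C258A noDox. On autosomes alone siFOXA1 called 0.583%, and without the densest 1 Mb window of X 0.564%. With C258A peaks as the sites, the median width was 463 bp.

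For each setting below, calls are given in the order parental WX-02-23, WX-02-43, DMSO, PladB, siControl, WT noDox and C258A noDox. The shares of all peaks under the same settings were not computed. A reciprocal overlap of 50% was required both in the choice of sites and in the look-up in the other lists. It gave 29.3%, 22.9%, 25.5%, 21.6% and 24.5% in the parental lists, and 13.2% of WT and 32.2% of C258A gained sites. It kept 701 of the 716 sites among 877, so these shares differ from the main ones in the look-up as well as in the sites. The top 50% of the induced lists gave 376 sites, of which 49 were among the 716, with 45.2%, 36.4%, 42.0%, 42.0%, 42.6%, 25.0% and 36.2%, siFOXA1 at 0.532%, a median width of 558 bp and a median score of 235. The 4 induced lists at equal length gave 57.8%, 45.3%, 54.7%, 55.3%, 56.1%, 31.1% and 41.4%, siFOXA1 at 0.58%, 14.8% of WT gained sites, 565 bp and a score of 240. Reducing the WX-02-23 lists alone gave 89 sites, 7.35% of WT and 17.4% of C258A gained sites, with 57.3%, 39.3%, 42.7%, 48.3%, 50.6%, 16.9% and 30.3%, 564 bp and a score of 228. The 91 sites with a score of 150 or more in both lists, chosen after seeing the data like the setting without the X window, gave 58.2%, 37.4%, 44.0%, 49.5%, 50.5%, 18.7% and 34.1%. The order of parental WX-02-23 above parental DMSO as deposited held under each of these settings, but their intervals overlapped under each. All settings used the same parental libraries, so the order is not independent evidence from one setting to the next.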
